A study of Mus musculus with 24 samples.

Results

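The galectin family was followed through arrays of aortic and skeletal muscle endothelium from WT and galectin-3 knockout (KO) mice on chow or a high-fat diet (HFD). The 9 members were chosen by name and comprised Lgals1, Lgals2, Lgals3, Lgals4, Lgals7, Lgals8, Lgals9 and Lgals12, which encode galectins, and Lgals3bp, which encodes a secreted glycoprotein bound by galectin-3. They were 9 of the 18539 gene symbols that could be given to array probes through RefSeq. The members had 11 probes, with a pair each for Lgals4 and Lgals8, and the brighter probe of a gene in a tissue stood for the gene there.

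Galectins are lectins that bind β-galactosides on glycoproteins and glycolipids through a conserved carbohydrate recognition domain. They are made without a signal peptide, leave cells by an unconventional route, and cross-link receptors at the cell surface, where the branching and capping of N-glycans set how well they bind. In blood vessels galectin-1 is known for its part in angiogenesis, galectin-3 binds advanced glycation end products as well as glycans, and galectin-9 is an interferon-inducible product of endothelial cells.

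WT mice were C57BL/6 J and KO mice were B6.Cg-Lgals3tm1Poi/J, which carry a targeted deletion in Lgals3 in every tissue of the body. Male mice took chow with 12% of its calories from fat, or HFD with 60%, from 8 weeks of age and for 8 weeks. Each array held RNA from a pool of mice (3 per group by the methods, 3 to 4 by the deposited design text). Cells were sorted as CD105+ (endoglin, on endothelium) and CD45- (meant to exclude leukocytes). The aorta and muscle of a pool were processed as separate samples. The 8 groups of strain, diet and tissue had 3 arrays each, 1 per independent experiment, so the values of a group below are given in the order of experiments 1, 2 and 3. The knockout is constitutive and was not confined to endothelium, and a pooled array hides the spread between animals.

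A level is the log2 intensity of a probe minus the log2 of its array's 75th percentile, so 0 is the 75th percentile of that array and 1 unit is a 2-fold step. The 75th percentile ranged from 2390 to 5938 intensity units, and 59.5% to 75.7% of spots were well above background. Detection was checked on 14 endothelial marker genes, all of them well above background on all 24 arrays. So were 7 of 8 fibroblast markers, 7 of 11 adipocyte markers with a probe, and the macrophage markers Csf1r, Cd14 and C1qb. Ptprc, the gene of CD45, was above background on 20 of 24 arrays. Detection therefore does not show purity. In aorta on HFD the mean level was 2.32 to 3.93 over the endothelial and 4.7 to 5.69 over the fibroblast markers. On chow it was 3.29 to 4.31 and 4.04 to 5.26, and only the WT array of experiment 2 had the endothelial mean higher. In muscle on HFD it was 4.49 to 4.86 and -0.48 to 3.06, and on chow 4.65 to 4.91 and -0.74 to 1.9. The epithelial markers were not uniformly absent. Epcam was above background on no array and Cdh1 on 3, but Krt8 on 16 and Krt5, Krt14, Krt18, Krt10 and Sfn on all 24. The strain labels were checked on 32 probes that separated KO from WT in experiments 2 and 3, Lgals3 left out, on an index that is 0 at the WT mean and 1 at the KO mean. Experiment 1 on HFD gave 4 arrays of intermediate index, 0.199 (labelled WT) and 0.366 (labelled KO) in aorta and 0.389 and 0.405 in muscle. The chow arrays of experiment 1, which had no part in choosing the probes either, lay at 0.048 and 1.018 in aorta and at 0.075 and 0.909 in muscle, WT first. The 16 arrays of experiments 2 and 3 chose the probes and so check nothing. WT and KO are therefore the labels of the arrays throughout, and the members' results over HFD arrays are given with those 4 arrays and, where they moved by over 1.5 times or changed a call, without them.

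The upstream windows of Lgals3, Lgals9 and Lgals2 are shown because the tissue and strain results turn on the first, the tissue result also on Lgals9, and Lgals2 was the member above background on all 6 aortic HFD arrays but only 2 of 6 aortic chow arrays. Each window holds the 250 bases before the gene's start on its own strand, from RefSeq on GRCm38.p6. The Lgals3 window is chr14:47373610-47373859 on the plus strand, the Lgals9 window chr11:78984925-78985174 on the minus strand, and the Lgals2 window chr15:78855530-78855779 on the minus strand. Capitals mark matches to the motifs searched.
Lgals3: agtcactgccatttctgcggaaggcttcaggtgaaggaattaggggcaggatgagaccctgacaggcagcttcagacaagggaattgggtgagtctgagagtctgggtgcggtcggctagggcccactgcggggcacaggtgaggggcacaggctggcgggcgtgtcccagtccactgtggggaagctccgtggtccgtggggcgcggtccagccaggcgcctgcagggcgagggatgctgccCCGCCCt
Lgals9: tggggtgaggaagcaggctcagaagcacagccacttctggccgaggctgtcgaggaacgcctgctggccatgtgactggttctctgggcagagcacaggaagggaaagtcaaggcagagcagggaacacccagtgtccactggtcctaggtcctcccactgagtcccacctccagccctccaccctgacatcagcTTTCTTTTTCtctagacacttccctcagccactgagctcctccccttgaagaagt
Lgals2: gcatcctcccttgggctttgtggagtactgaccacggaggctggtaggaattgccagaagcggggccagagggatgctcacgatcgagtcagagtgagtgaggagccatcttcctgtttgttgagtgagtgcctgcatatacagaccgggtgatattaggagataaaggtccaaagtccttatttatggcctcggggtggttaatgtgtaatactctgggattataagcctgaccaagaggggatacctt
The motifs were the GC box GGGCGG, the TATA box TATAAA, and TTTC repeated after any 2 bases, the core of interferon-stimulated response elements, each on both strands, and no matches overlapped. Lgals3 held a GC box read on the opposite strand, 7 bases before the start, in a window of 66% GC. Lgals9 held TTTCTTTTTC 55 bases before the start, and Lgals2 held none of the 3 motifs. Of the 7 members with a window, 2 held GGGCGG (Lgals3 and Lgals7), 1 held the TTTC repeat and 0 held TATAAA, against 32.7%, 2.98% and 12.4% of 32841 windows of the same length. The windows of Lgals4, Lgals7 and Lgals8, not shown, lie before a start inside the gene's outer bounds. Lgals1 and Lgals12 had no window in the table used here. A match is a run of letters and no evidence of binding.

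Signal was well above background on all 24 arrays for 6 members, Lgals1, Lgals3, Lgals4, Lgals8, Lgals9 and Lgals3bp. The other 3 were dim. Lgals12, a galectin of adipocytes and their lipid droplets, was above background on 11 of 12 aortic and 4 of 12 muscle arrays. Lgals2, a galectin best known from the gut, was above background on 8 aortic and 4 muscle arrays, and Lgals7, the galectin of keratinocytes, on 7 and 6. A probe was tested in a tissue where it was above background on all 3 arrays of at least 1 group, so 8 members were tested in aorta (not Lgals7), 7 in muscle (not Lgals2 or Lgals12) and 9 over both tissues. Lgals12 and Lgals2 entered the tissue test only through aortic groups, and Lgals2 the aortic diet test only through HFD groups. Lgals7 entered every test only through WT muscle on HFD. In these tests the filter itself favoured a difference, so the calls and p-values of these members there support nothing. Counts over the tested members are descriptions.

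**Figure D1:**
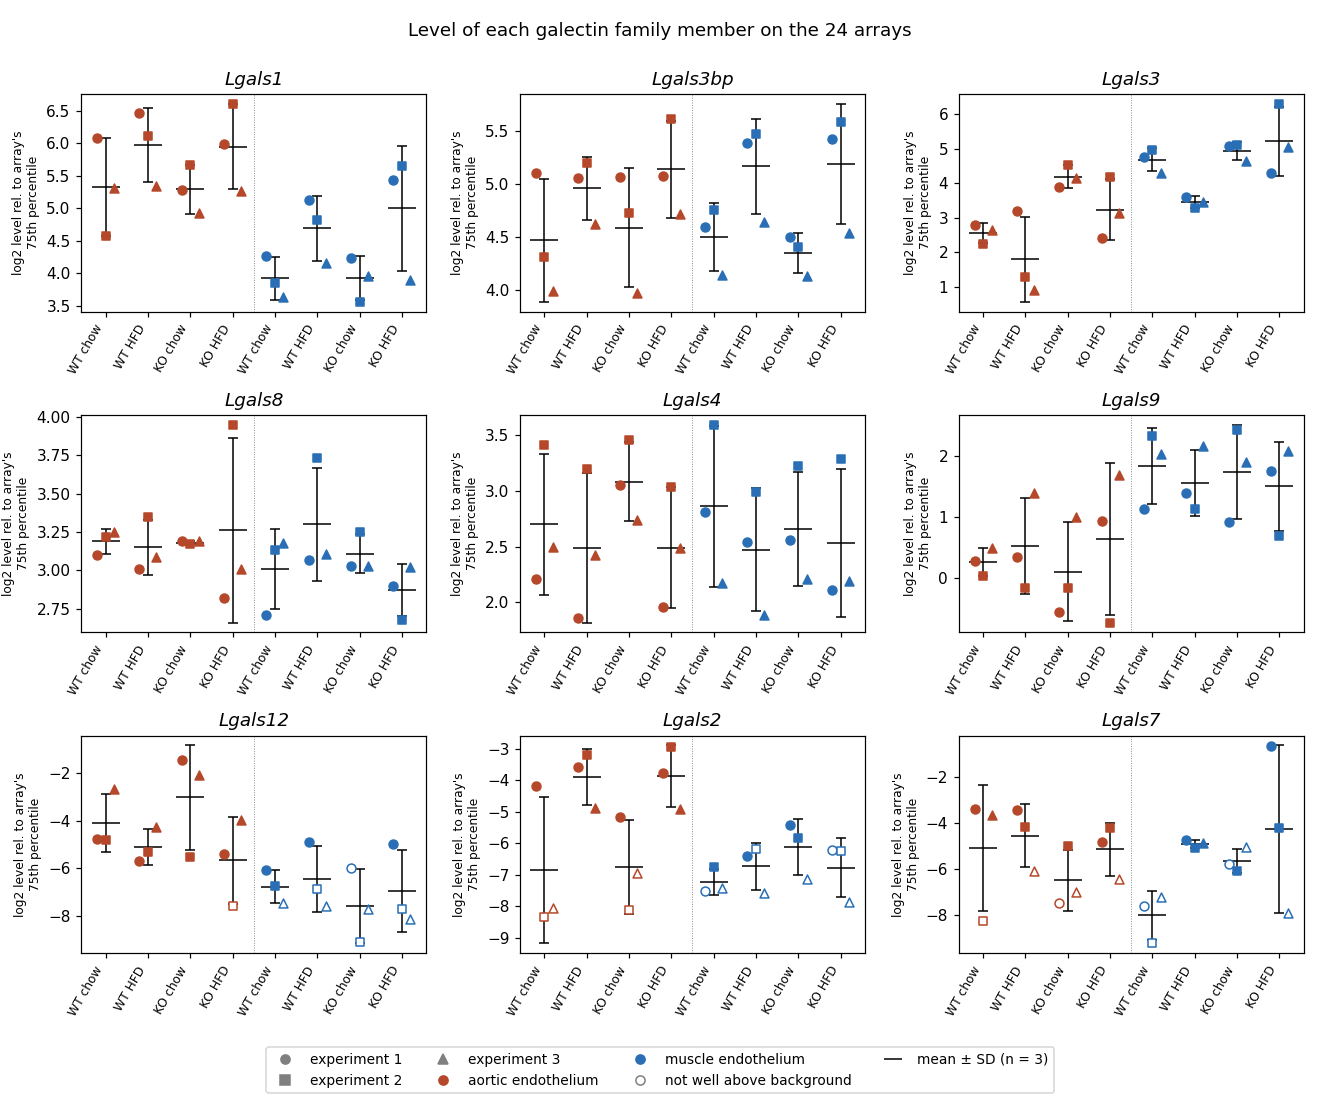
Levels of the 9 members on the 24 arrays (y axis, log2 intensity relative to the array's 75th percentile; x axis, groups of tissue, strain and diet, 3 arrays each; bars, mean ± SD; open symbols, arrays where the probe was not well above background). Lgals1 lay higher in aorta than in muscle, Lgals3 and Lgals9 lower, and Lgals2, Lgals7 and Lgals12 spread widely within groups.

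The first comparison asked how the family differed between aortic and muscle endothelium. Lgals1 was higher in aorta, by 2.39-fold over strains and diets. Lgals3 and Lgals9 were lower in aorta, by 3.09-fold and 2.42-fold. The Lgals3 fold includes KO arrays, where the gene is deleted and the signal does not stand for intact Lgals3 RNA. In WT alone Lgals3 was lower in aorta by 4.36-fold on chow and 3.15-fold on HFD. Lgals3bp, Lgals4, Lgals7 and Lgals8 did not pass the test. Lgals12 and Lgals2 also passed as higher in aorta, but each was above background on only 4 of 12 muscle arrays, so no overall fold is given for them. With probes required to be above background on every array, 3 of the 6 members tested passed an adjusted p of 0.05 in limma (Benjamini-Hochberg over all probes), where 48.9% of 19431 probes passed. With the filter used elsewhere, 5 of 9 members passed (3 higher, 2 lower), where 46.3% of 26753 probes passed, 15.9% higher and 30.3% lower, but that count includes Lgals12 and Lgals2. The median difference over all probes was -0.27, and relative to that shift the differences were 1.53 for Lgals1, -1.36 for Lgals3 and -1.0 for Lgals9.

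Lgals1 encodes galectin-1, a single-domain galectin that pairs with itself to bridge glycans. In aorta its level was 6.09, 4.58 and 5.32 in WT on chow, 6.47, 6.11 and 5.35 in WT on HFD, 5.28, 5.67 and 4.92 in KO on chow and 5.99, 6.60 and 5.27 in KO on HFD. In muscle it was 4.27, 3.85 and 3.63 in WT on chow, 5.12, 4.82 and 4.15 in WT on HFD, 4.23, 3.56 and 3.95 in KO on chow and 5.44, 5.65 and 3.89 in KO on HFD. The aortic array was the higher in 12 of 12 pairs of the same strain, diet and experiment, although the ranges of the tissues overlapped. The difference was 1.26 (SE 0.24, limma adjusted p = 0.000301), and 1.30 (adjusted p = 0.00205) without the HFD arrays of experiment 1. Within single groups Lgals1 differed by 0.95 to 1.41, with adjusted p from 0.0514 to 0.188, and from 0.00739 to 0.0339 once the pool of animals, which gave both tissues, was a block.

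Lgals3, the gene deleted in KO mice, encodes galectin-3, the chimeric galectin whose tail lets it form oligomers. Its level in aorta was 2.80, 2.24 and 2.64 in WT on chow, 3.20, 1.27 and 0.90 in WT on HFD, 3.88, 4.53 and 4.16 in KO on chow and 2.40, 4.17 and 3.13 in KO on HFD. In muscle it was 4.77, 4.98 and 4.31 in WT on chow, 3.61, 3.27 and 3.46 in WT on HFD, 5.08, 5.12 and 4.64 in KO on chow and 4.31, 6.31 and 5.04 in KO on HFD. The muscle array was the higher in 12 of 12 pairs, and in each group of strain and diet the 3 aortic arrays lay below the 3 muscle arrays. The difference was -1.63 (SE 0.27, limma adjusted p = 7.33e-05), and -1.80 (adjusted p = 7.69e-06) without the HFD arrays of experiment 1. Both fits include KO arrays, so neither is a difference in intact Lgals3 RNA alone. By group it was -2.13 (adjusted p = 0.0115) in WT on chow, -1.66 (0.0406) in WT on HFD, -1.98 (0.0158) in KO on HFD and -0.75 (0.472) in KO on chow, where 15.5%, 16.8%, 16.5% and 6.31% of all probes passed. The calls in WT on chow, WT on HFD and KO on HFD were lost without experiment 2 (-1.82, -1.48 and -1.90, adjusted p 0.0962, 0.215 and 0.119) and without experiment 3 (-2.35, -1.21 and -2.02, adjusted p 0.125, 0.375 and 0.14). Whether the 4 group differences differed from each other was not tested.

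Lgals9 encodes galectin-9, a galectin with a pair of linked domains. Its aortic level was 0.27, 0.03 and 0.49 in WT on chow, 0.35, -0.17 and 1.39 in WT on HFD, -0.55, -0.16 and 1.00 in KO on chow and 0.94, -0.73 and 1.69 in KO on HFD. In muscle it was 1.13, 2.32 and 2.03 in WT on chow, 1.39, 1.13 and 2.16 in WT on HFD, 0.91, 2.42 and 1.89 in KO on chow and 1.75, 0.68 and 2.07 in KO on HFD. Muscle was the higher in 12 of 12 pairs, with overlapping ranges, and aortic experiment 3 gave the highest value of every aortic group. The difference was -1.28 (SE 0.30, limma adjusted p = 0.00183), and -1.28 (adjusted p = 0.0135) without the HFD arrays of experiment 1. With the pool of animals as a block, the difference within chow groups also passed, at -1.56 (adjusted p = 0.0119) in WT and -1.64 (adjusted p = 0.0176) in KO.

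Lgals12 lay far below the array's 75th percentile in both tissues. In aorta its level was -4.79, -4.83 and -2.69 in WT on chow, -5.72, -5.34 and -4.28 in WT on HFD, -1.46, -5.54 and -2.10 in KO on chow and -5.40, -7.61 and -3.99 in KO on HFD. In muscle all levels lay between -9.10 and -4.92. Only 4 of these 12 muscle values were above background, so the fitted difference of 2.47 (SE 0.57, limma adjusted p = 0.00168) has no measured muscle level behind it in most pairs. It was 2.95 (adjusted p = 0.00161) without the HFD arrays of experiment 1 and 1.47 (adjusted p = 0.141) without the third experiment. In KO on chow, no muscle array was well above background, and the aortic level was at least 8.87-fold higher than the lowest measurable signal there (limma adjusted p = 0.0191). That call was lost without any 1 of the experiments, at differences of 4.04 to 5.07 and adjusted p from 0.0748 to 0.231. The bound sets the mean of the brighter group against, on each dim array, the higher of the probe's own signal and the lowest signal among probes well above background, and the bounds below were computed in the same way.

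Lgals2 encodes galectin-2, a single-domain galectin. Its aortic level was -4.18, -8.34 and -8.04 in WT on chow, -3.58, -3.18 and -4.88 in WT on HFD, -5.16, -8.11 and -6.94 in KO on chow and -3.77, -2.95 and -4.90 in KO on HFD. In muscle it lay between -7.86 and -5.41, with 4 of 12 arrays above background. The HFD arrays of aorta stood above all muscle arrays, and the chow arrays of aorta lay above, among and below them. On HFD in KO no muscle array was above background, and the aortic level was at least 4.49-fold higher (limma adjusted p = 0.0383). On HFD in WT 1 of 3 muscle arrays was above background, and the fit gave an adjusted p of 0.0411 with no fold that can be measured. Over all groups the fitted difference was 1.38 (adjusted p = 0.0211). The overall call was lost without experiment 1 (0.96, adjusted p = 0.118), without experiment 3 (1.41, adjusted p = 0.0867) and without the HFD arrays of experiment 1 (1.44, adjusted p = 0.0617). The calls on HFD were lost without any 1 of the experiments and without those arrays alone (adjusted p from 0.0568 to 0.243).

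Lgals3bp encodes the galectin-3 binding protein, a scavenger receptor cysteine-rich glycoprotein. Its tissue difference was -0.01 (limma adjusted p = 0.965), with a 95% interval from -0.40 to 0.38. Lgals4, a tandem-repeat galectin of gut epithelium, had group means from 2.47 to 3.08 and differed by 0.06 with an interval from -0.43 to 0.55. Whether its brighter probe reads Lgals4 alone was not tested. Lgals8, a tandem-repeat galectin that binds integrins and damaged lysosomes, had group means from 2.87 to 3.30 across all 8 groups and a tissue difference of 0.13 (adjusted p = 0.449), which became 0.39 (adjusted p = 0.0261) on the scale of the deposited log2 table. The other Lgals8 probe gave -0.04 (adjusted p = 0.837). For Lgals7 the difference was 0.38, with an interval from -1.08 to 1.84, and in WT on chow 2 of 3 aortic arrays and no muscle array were above background. Without the HFD arrays of experiment 1 the differences were 0.04 for Lgals3bp, 0.17 for Lgals4 and Lgals8, and 0.67 for Lgals7, none past the threshold.

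Cell type markers moved with tissue on the same arrays. All 8 fibroblast markers passed the test as higher in aorta (median difference 4.48), with a mean level over the markers from 4.04 to 5.69 in aorta and from -0.74 to 3.06 in muscle. All 8 markers of muscle fibres were lower in aorta (median -6.46), and 13 of 14 endothelial markers were lower (median -1.11). Of 10 adipocyte markers tested, 6 were higher and 3 lower, and of 9 macrophage markers 1 was higher. Over all probes 15.9% were higher and 30.3% lower. The part of these cells in the tissue differences of Lgals1, Lgals3, Lgals9 and Lgals12 was not tested. In bulk samples, fewer cells of a type and less RNA per cell cannot be told apart. The tissues lay on separate slides, and with the slide as a random block Lgals1, Lgals3 and Lgals9 still passed. Lgals12 also passed and Lgals2 did not (limma adjusted p = 0.101). The filter favoured a difference for both of these, so neither outcome supports anything.

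**Figure D2:**
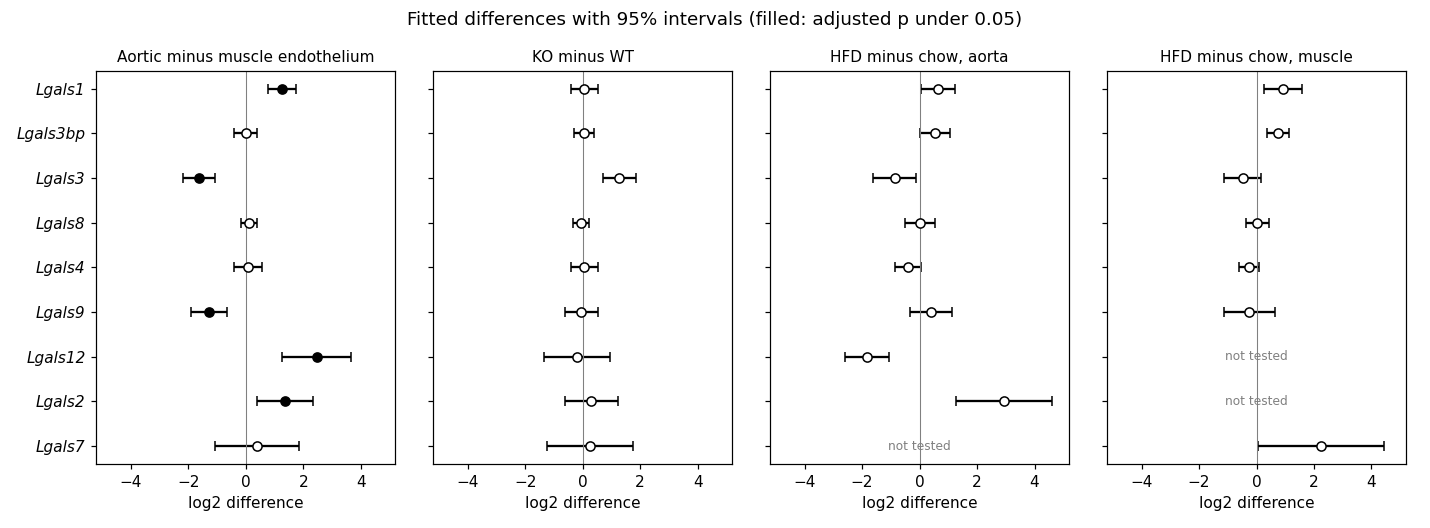
Fitted log2 differences of the members with 95% intervals (x axis) for aortic minus muscle endothelium, KO minus WT, and HFD minus chow in each tissue; filled points passed an adjusted p of 0.05 in limma. Filled points occur only in the tissue panel, for Lgals1, Lgals3 and Lgals9, and for Lgals2 and Lgals12, which were mostly not above background in muscle.

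The second comparison asked whether the strains differed in the deleted gene or in its relatives. The Lgals3 probe gave signal well above background on all 12 arrays labelled KO, and its level there was higher, not lower, than on WT arrays in 11 of 12 pairs matched for tissue, diet and experiment. The exception was aorta on HFD in experiment 1, where the KO array lay below the WT array (-0.79). In aorta on chow the 3 KO arrays (3.88 to 4.53) stood above the 3 WT arrays (2.24 to 2.80), and in muscle on HFD the 3 KO arrays (4.31 to 6.31) stood above the 3 WT arrays (3.27 to 3.61). The groups overlapped in muscle on chow and in aorta on HFD.

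Over both tissues and diets, Lgals3 was 2.42-fold higher on KO arrays, a difference of 1.28 (SE 0.28, 95% interval 0.70 to 1.86). The limma adjusted p was 0.0889, so it did not pass the threshold over the 26753 probes, of which 0.138% passed. Without the HFD arrays of experiment 1 the difference was 1.54 (SE 0.28) and passed with an adjusted p of 0.0218. Each pool gave an aortic and a muscle array, and both fits counted these as independent. Deviations from group means correlated by 0.21 on average between them. The SEs, intervals and p-values for strain over both tissues may therefore be too small. By group the difference was 1.63 in aorta on chow (adjusted p = 0.993), 1.45 in aorta on HFD (adjusted p = 1), 0.26 in muscle on chow (adjusted p = 1) and 1.77 in muscle on HFD (adjusted p = 1). Without the HFD arrays of experiment 1, the HFD differences were 2.57 in aorta (adjusted p = 0.72) and 2.31 in muscle (adjusted p = 0.277). Within the 4 groups 0.0118%, 0.00395%, 0% and 0% of all probes passed. Where the probe lies in relation to the deleted exons was not determined here, and a probe outside the deleted part checks no label. By the study's methods the deletion removes the start codon. The study checked it on genomic DNA, by qPCR with primers inside the deleted part, which gave no product in KO, and by loss of the protein in aortic lysates.

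No other member had an unadjusted p under 0.05 for strain over all groups, where 4.36% of all probes had one. Their differences ran from -0.20 (Lgals12) to 0.30 (Lgals2), and from -0.26 to 0.36 without the HFD arrays of experiment 1, with 0.06 for Lgals1, whose 95% interval was -0.40 to 0.52. For Lgals3bp the difference was 0.04, with an interval from -0.32 to 0.40, and for Lgals8 it was -0.06, with an interval from -0.33 to 0.21. For Lgals7 in muscle on chow, 1 of 3 KO arrays and no WT array were above background.

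The third comparison asked how HFD moved the family within each tissue and strain. No member passed the test in any of the diet contrasts. Over both strains 0.0316% of 25347 probes passed in aorta and 0.25% of 25161 in muscle. Within strains, 0% passed in WT aorta, KO aorta and WT muscle, and 0.00397% in KO muscle. Unadjusted p under 0.05 was found for Lgals1, Lgals2, Lgals3 and Lgals12 in aorta, against 15.1% of all probes, and for Lgals1, Lgals3bp and Lgals7 in muscle, against 16.5%. Lgals2 in aorta and Lgals7 in muscle had entered these tests only through HFD groups, so their p-values support nothing. The values below are therefore sizes and directions, none of them past the threshold.

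**Figure D3:**
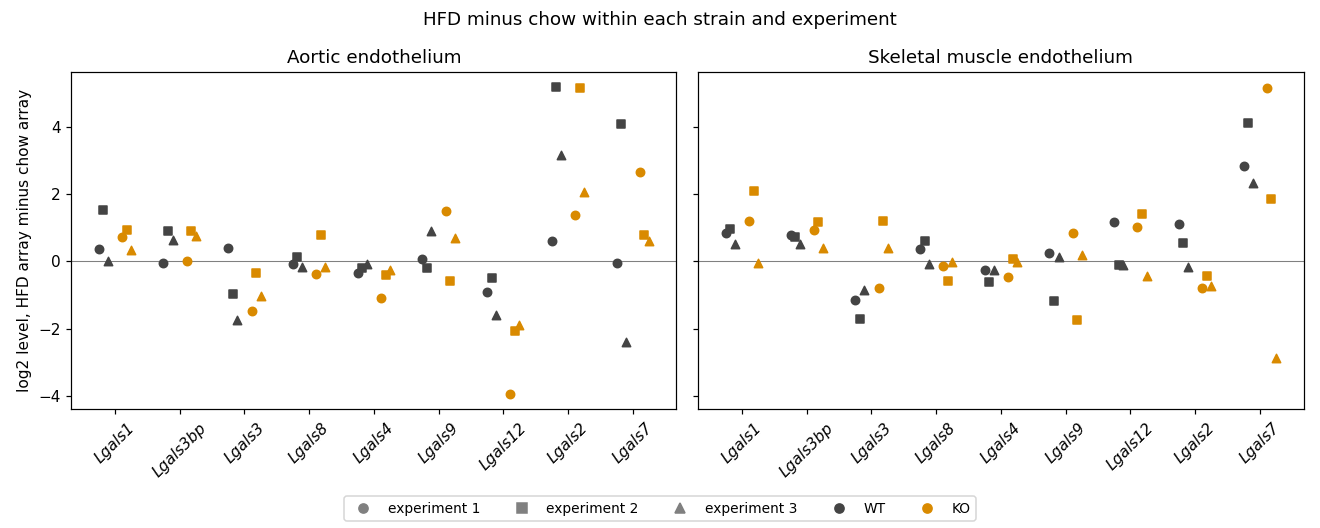
HFD minus chow (y axis, log2 difference) for each member in aorta and muscle, 1 point per strain and experiment, each an HFD array against the chow array of the same strain and experiment. Lgals12 lay below 0 in all 6 aortic pairs, Lgals2 above 0 in all 6, of which 4 have a chow array not above background, and Lgals1 and Lgals3bp lay above 0 in 11 of 12 pairs each.

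Lgals12 was lower on HFD than on chow in 6 of 6 aortic pairs. The pairs ran from -1.58 to -0.51 in WT and from -3.94 to -1.88 in KO, so the strains did not overlap. Over both strains the aortic difference was -1.82 (SE 0.32, limma adjusted p = 0.129), and -1.51 (adjusted p = 0.318) without the HFD arrays of experiment 1. The experiment 2 HFD array of KO was not above background. KO differed from WT in this response by -1.63 (adjusted p = 1), or by -0.93 without the HFD arrays of experiment 1, and aorta from muscle by -2.30 (adjusted p = 0.187). The muscle side of the last value was mostly not measured, since Lgals12 was above background on only 4 muscle arrays. Adipocyte markers were also lower on HFD in aorta. Their mean level was lower on HFD in 6 of 6 aortic pairs (-4.79 to -2.15), all 10 tested markers had a negative difference (median -3.37), and Cyp2e1, an oxidase of fat and liver, passed at -4.64 (adjusted p = 0.0181). The mean level of the adipocyte markers was 2.03 to 4.43 in aorta on chow and -1.07 to 0.36 on HFD, with Lep, the leptin gene, above background on 1 of 24 arrays. By group the adipocyte mean went from 2.62 on chow to -0.34 on HFD in WT aorta, and from 3.22 to 0.11 in KO aorta. In muscle it was lower on HFD in 5 of 6 pairs (median -0.84), while Lgals12, mostly not above background there, was lower in 3 of 6. The part of adipocytes in the Lgals12 difference was not tested.

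**Figure D4:**
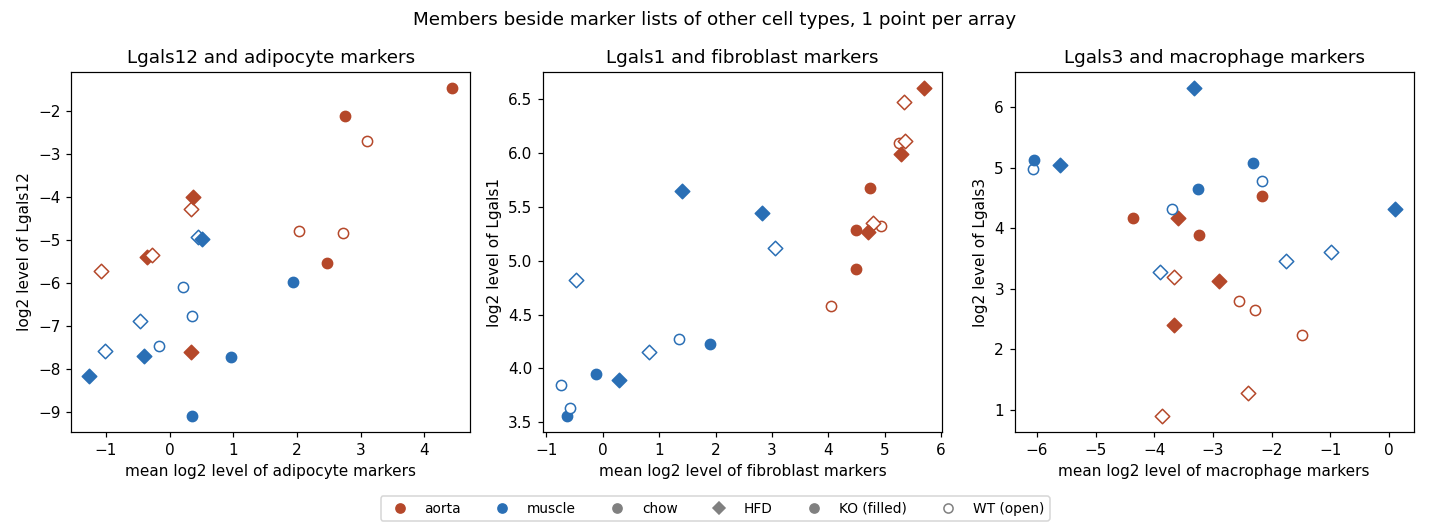
Levels of Lgals12, Lgals1 and Lgals3 (y axes, log2 relative to the 75th percentile) against the mean log2 level of adipocyte, fibroblast and macrophage markers (x axes), 1 point per array. The aortic chow arrays have the highest adipocyte means, 2.03 to 4.43, and the aortic arrays the highest fibroblast means, 4.04 to 5.69.

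Lgals2 was above background on all 6 aortic arrays on HFD and, on chow, only on the experiment 1 array of each strain. In experiment 1, where both arrays were measured, the HFD array was 1.52-fold higher in WT and 2.62-fold higher in KO. In the other pairs the HFD array was at least 8.95-fold (experiment 2) and 2.65-fold (experiment 3) higher in WT, and at least 8.68-fold and 2.34-fold higher in KO. All 6 pairs thus lay in 1 direction, by amounts that differed between experiments. The limma test over both strains gave an adjusted p of 0.196, and 0.298 without the HFD arrays of experiment 1. Since the chow level was not measured in 4 pairs, no mean difference is given.

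Lgals1 and Lgals3bp were each higher on HFD in 11 of 12 pairs over both tissues. For Lgals1 the exception was KO muscle in experiment 3 (-0.06), and for Lgals3bp it was WT aorta in experiment 1 (-0.04). The Lgals3bp level in muscle was 4.60, 4.76 and 4.14 in WT on chow, 5.39, 5.47 and 4.64 in WT on HFD, 4.50, 4.41 and 4.13 in KO on chow and 5.43, 5.59 and 4.54 in KO on HFD. Experiment 3 gave the lowest HFD array of each strain, which fell within the chow arrays in WT and just above them in KO. The muscle difference was 0.75 (SE 0.16, limma adjusted p = 0.12) for Lgals3bp and 0.93 (SE 0.28, adjusted p = 0.189) for Lgals1. In aorta they were 0.52 (SE 0.22, adjusted p = 0.331) and 0.65 (SE 0.25, adjusted p = 0.296). Without the HFD arrays of experiment 1 they were 0.70 and 0.88 in muscle and 0.79 and 0.71 in aorta. The mean level of the fibroblast markers was higher on HFD in 6 of 6 muscle pairs (median 1.16) and 5 of 6 aortic pairs (median 0.51). In aorta smooth muscle markers were also higher in 6 of 6 pairs (median 0.41) and endothelial markers lower in 5 of 6 (median -0.99). The part of these cells was not tested.

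Lgals3 was lower on HFD in WT muscle in 3 of 3 pairs (-1.71 to -0.85), and the 3 HFD arrays (3.27 to 3.61) lay below the 3 chow arrays (4.31 to 4.98). The difference was -1.24 (SE 0.39, limma adjusted p = 0.293). In KO muscle it was 0.27 (SE 0.39, adjusted p = 0.845), and the strains differed in this response by 1.51 (SE 0.55, adjusted p = 0.999). Without the HFD arrays of experiment 1 these were -1.28 in WT, 0.80 in KO and 2.08 between them (adjusted p = 1). In aorta Lgals3 was lower on HFD in 5 of 6 pairs, with a difference over both strains of -0.87 (SE 0.32, adjusted p = 0.291), and -1.03 without the HFD arrays of experiment 1. In aorta the mean level of the macrophage markers was lower on HFD in 5 of 6 pairs (median -1.01), and that of the endothelial markers in 5 of 6 (median -0.99, all 14 with a negative difference). In muscle the macrophage level was higher on HFD in 5 of 6 muscle pairs (median 2.05), with a range from -5.60 to 0.11 on HFD and from -6.07 to -2.16 on chow. The part of these cells was not tested.

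The remaining members showed smaller or less even diet differences. Lgals4 was lower on HFD in 11 of 12 pairs, with differences over both strains of -0.40 in aorta and -0.26 in muscle (adjusted p 0.375 and 0.438), and of -0.24 and -0.21 without the HFD arrays of experiment 1. Lgals9 differed by 0.40 in aorta and -0.25 in muscle (0.20 and -0.65 without those arrays), with pairs of both signs in every group. Lgals8 differed by 0.02 in aorta and 0.03 in muscle on its brightest probe (0.14 and -0.02 without those arrays), but its other probe gave -0.61 in muscle (SE 0.21, limma adjusted p = 0.234). For Lgals7 the limma test in muscle gave an adjusted p of 0.297. In WT muscle no chow array and all 3 HFD arrays of Lgals7 were above background, a fold of at least 2.54. That HFD group alone let Lgals7 into the muscle test, so these values support no diet difference.

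For each member the 8 groups were also put in order of mean level and each group compared with the next. Only 1 such step exceeded its 95% interval, the drop of Lgals2 from WT aorta on HFD to KO muscle on chow. It was 2.24 (SE 0.93), with 3 of 3 and 2 of 3 arrays above background. Lgals2 had passed the filter only through the aortic HFD groups, which lie above that step, so the step supports nothing. All other neighbouring groups did not differ beyond their spread. The order came from the same means and the intervals were not adjusted for the number of steps, so the steps are descriptions.

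The genes that make or carry the glycans were taken from fixed lists. Of 20 galectin-binding glycoproteins 18 were tested, and between tissues 4 of the 18 were higher and 9 lower in aorta, where 15.9% and 30.3% of all probes were (median -0.49 against -0.27). Fn1 (fibronectin) was higher by 2.58, Itgb3 by 1.99 and Itgav by 1.73, the last 2 being the chains of the integrin that binds vitronectin. Itgav was above background on only 16 of the 24 arrays, so its size is uncertain. The difference was -1.60 for Mcam, an adhesion molecule of endothelium, -1.26 for Nrp1, a co-receptor of VEGF, and -1.02 for Kdr, the VEGF receptor bound by galectin-1, which was also an endothelial marker here. Of 18 glycan enzymes 16 were tested, with 5 higher and 5 lower (median -0.29). Among them were Gcnt1, which starts core branches of O-glycans, at 3.62, Mgat3, which adds the bisecting residue of N-glycans, at 1.16, Gcnt2, which branches poly-lactosamine, at -2.16 and Mgat4a, which branches N-glycans, at -1.44. Of 8 receptors of advanced glycation end products 7 were tested, with Msr1 (2.67) and Ddost (0.94) higher and Scarb1 (-1.62) and Cd36 (-0.72) lower in aorta. Msr1 was above background on only 11 of the 24 arrays, so its fitted value has no measured level behind it on the others.

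No gene of these 3 lists passed the test for diet over both strains or for strain over all groups. In aorta the largest diet differences of either sign were 0.83 for Itgav and -0.81 for Mertk among the glycoproteins, 1.44 for Mgat3 and -1.58 for Gcnt1 among the enzymes, and 1.35 for Msr1 and -1.14 for Scarb1 among the receptors. In muscle they ran from -0.58 for Gcnt2 to 0.96 for Cd44, the hyaluronan receptor. For strain they ran from -0.32 for Cd44 to 0.64 for Msr1. The values of Msr1 and Itgav rest partly on arrays where the probe was not above background, so their sizes are uncertain.

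The probes most like each member over the 24 arrays were found by Pearson's r over 15562 probes, as a description without a test, since the arrays share tissue, slide and scale. Lgals1 was most like Ddost (r = 0.96, and 0.94 in aorta and 0.91 in muscle alone). Lgals3bp was most like Flna, the actin cross-linker filamin A (0.93, with 0.97 and 0.90 within tissues). Lgals3, with KO arrays included, was most like Glt28d2 (0.84, with 0.78 and 0.64) and Map3k6 (0.84, with 0.73 and 0.81). Lgals9 was most like Nacc1 (0.95), Lgals8 like Pigp (0.86) and Lgals4 like Ermard (0.80).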

How the data were processed

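RNA from sorted endothelial cells was hybridised to 24 1-colour Agilent arrays. The deposited scanner files hold processed signal intensity per spot, background-corrected by Agilent Feature Extraction 10.5.1.1 per the file headers (the submitters' processing notes name 9.1). A deposited log2 table equals the log2 of that intensity plus a constant for each array, within 0.01 on all values, and served as an alternative. The genome build is not given in the sources used here.

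Intensities were taken to log2, each array's 75th percentile was subtracted, and spots of a probe were averaged, control spots and outlier flags left out. Probes well above background on all arrays of a group, by at least 0.5 of their spots, were tested. Accessions were named through the RefSeq gene table for GRCm38.p6. Tests used limma 3.58.1 in R 4.3.3 with Benjamini-Hochberg adjustment over all probes tested and a threshold of 0.05. Diet was tested with a block for each strain and experiment, as the experiments were independent and each tissue and experiment shared a slide. Strain and tissue were tested on group means. Deviations from group means correlated by 0.24 on average within a tissue and experiment and by -0.12 between experiments. The number of arrays limits the precision. Within a tissue, p-values cover the spread between pools. The strain fit over both tissues counted the aortic and muscle arrays of a pool as independent, although their deviations correlated by 0.21 on average. Scripts were tested on simulated data.

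All members were named, and partner and marker genes came from lists. Members and lists were chosen with earlier results of these data known. Alternatives were normexp with an offset of 50, quantile normalization, the deposited log2 values, other filters, other blocks, and leaving out an experiment or the HFD arrays of experiment 1.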

Additional observations from a re-analysis of the deposited data

Results flagged for a closer look

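In KO mice, the Lgals2 signal was higher on HFD in every aortic pair (mean difference 2.87) and lower on HFD in every muscle pair (-0.65). No KO muscle array on HFD was above background for Lgals2, so the muscle value gives no direction, and 2 of the 3 aortic chow arrays were not above background either. The difference between tissues was not tested within KO, and over both strains the fit gave an adjusted p of 0.298 in limma. In WT mice, the brightest Lgals8 probe was higher in aorta than in muscle in every pair on chow (mean difference 0.18) and lower in aorta in every pair on HFD (-0.15). Relative to the median shift of all probes (-0.27 and -0.24) these were 0.45 and 0.09, and the other Lgals8 probe gave -0.52 and 0.08. This difference was not tested.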

How the results depend on the processing

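No member that passed the test changed direction under an alternative. Over strains and diets, 5 members passed between tissues, 3 when probes had to be above background on every array and 3 to 5 when an experiment was left out. The lowest count came without experiment 3, which cost Lgals12 and Lgals2. The counts here and within groups include calls of Lgals12 and Lgals2, which the filter favoured and which support nothing. Within KO on HFD (2 members), the count was 1 with normexp, without the filter, with the every-array filter and without the HFD arrays of experiment 1, and 0 to 1 when an experiment was left out. Within WT on HFD (2), it was 0 without the filter, 1 with the every-array filter, without the HFD arrays of experiment 1 and with the slide as a random block, and 0 to 1 when an experiment was left out. Within KO on chow (1), it was 2 with quantile normalization and the deposited table, 0 with the every-array filter, 0 when any experiment was left out and 3 with the pooled animals as a replicate block. Within WT on chow (1), it was 2 with normexp, quantile normalization, the deposited table and the every-array filter, 0 to 1 when an experiment was left out (0 without experiment 2 or 3) and 3 with the pooled animals as a replicate block. Lgals3 in WT on HFD gave -1.40 (limma adjusted p = 0.091) in the deposited table.

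For strain over all groups, 0 members passed and 1 (Lgals3) without the HFD arrays of experiment 1. For diet over both strains in muscle, 0 passed and 1 (Lgals3bp, adjusted p = 0.046) with the experiment alone as a replicate block. Without a replicate block, 0 members passed in every diet contrast, and the block changed no other call.

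Over all probes, diet called 8 in aorta (0 to 52 over the alternatives) and 63 in muscle (0 to 266), with 0 in both when any experiment or the HFD arrays of experiment 1 were left out. Strain called 37 over all groups (0 to 53), with 0 without experiment 2 or 3. Tissue called 12379 (4267 higher, 8112 lower), 7572 with the slide as a random block, and 10056 in the deposited table (5927 higher, 4129 lower), whose median difference was -0.01. Signal over background limits Lgals2, Lgals7 and Lgals12, and 3 arrays a group limit all members. The causes of these changes were not tested.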

Other observations

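Among the 6 members above background on all 24 arrays, Lgals1 and Lgals9 had opposed levels across arrays (Pearson's r = -0.74), Lgals1 and Lgals3bp varied together (0.61), and Lgals1 and Lgals3 were opposed (-0.43). The remaining pairs had r from -0.34 to 0.31. The arrays share tissue, slide and scale, so these values are descriptions without a test. Those of Lgals3 include KO arrays, where the gene is deleted.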
